A study of Arabidopsis thaliana with 16 samples.

Results

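The photosynthetic genes described here, 6 in number, were followed across wild type (WT) Arabidopsis thaliana and the psag mutant, both of ecotype Columbia 0. They encode a subunit of photosystem I (PSAN, AT5G64040), small subunits of photosystem II (PSBW, AT2G30570, and PSBY, AT1G67740), an antenna protein of photosystem II (LHB1B2, AT2G34420) and enzymes of chlorophyll synthesis (CHLM, AT4G25080, and the geranylgeranyl reductase AT1G74470). Each has a probe that lists it as the single gene. The 6 genes were picked by name and function, from 692 single-gene probes among 3439 probes in all. The psag plants lack the protein PSI-G, which belongs to photosystem I and sits in the thylakoid membrane. Total RNA of each genotype was measured on 8 arrays, with replicate numbers from 1 to 8. Tissue, age, light and the type of mutation are not given in the labels.

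Photosystem II and photosystem I act in series in the thylakoid membrane. Photosystem II takes electrons from water, and photosystem I passes them on to ferredoxin after plastocyanin has delivered them to its lumenal side. Antenna proteins of the LHCB family bind chlorophyll and feed light energy into photosystem II. Chlorophyll is made in the plastid from the tetrapyrrole pathway, and its phytyl tail comes from the isoprenoid pathway. All 6 proteins are made from nuclear genes and imported into the chloroplast.

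The deposited values are intensities on a linear scale that ends at 100, the level of the brightest probe on 15 of the 16 arrays. None of the 6 genes was listed at 0 on any array. For the comparisons, intensities were taken as log2(intensity + 0.0407) and quantile normalized, which gives every array the same set of values and keeps only the rank of a probe on its array. Neighbouring replicate numbers (1 and 2, 3 and 4, 5 and 6, 7 and 8) resembled each other in most cases and were averaged, so each genotype had 4 measurements. The correlations of neighbours were higher in psag than in WT at each pair. Deviations of neighbours from the genotype mean correlated at 0.616, 0.586, 0.450 and 0.726 in psag. In WT the correlations were 0.316, -0.119, 0.086 and 0.541. The psag mean included replicates 7 and 8, which differed from the rest, and this can raise correlations among psag arrays that are not neighbours too. The genotypes are therefore not compared on how alike neighbours were. Replicates 7 and 8 of psag stood apart: their correlation with the other 7 measurements was 0.819 to 0.852, against 0.934 to 0.980 among those 7. They differed by more than 1 on the log2 scale from the average of psag replicates 1 to 6 at 988 probes (28.7%), against 208 (6.05%) for WT replicates 7 and 8. The differences below are therefore given with and without them.

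Across all 3438 probes tested, 11 (0.320%) passed an adjusted p of 0.05 with 4 against 4 measurements (limma), and 0 of the 6 genes were among them. At an unadjusted p under 0.05 there were 4 of the 6 genes (PSAN, PSBW, PSBY and LHB1B2), against 437 probes (12.7%) of all. That count depended on the scaling. With each array centred on its median instead, only PSBW was under 0.05 (limma, unadjusted p = 0.00517), and 379 of all probes were. Without normalization PSAN and PSBW were (limma, unadjusted p = 0.0141 and 0.0321), and 375 of all probes were. The 6 genes were chosen with earlier results of these data known, so these counts are a description. Of the 6, 3 had a higher mean in psag and 3 a lower one, with a median difference of -0.03 on the log2 scale and a median size of 0.48. Over all probes the median difference was 0 to within rounding, and the median size was 0.25. All probes here include 130 listed at 0 on every array, while none of the 6 genes was at 0, so the median sizes are not of like probes. Fewer cells of a type and less RNA per cell cannot be told apart in such samples.

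**Figure D1:**
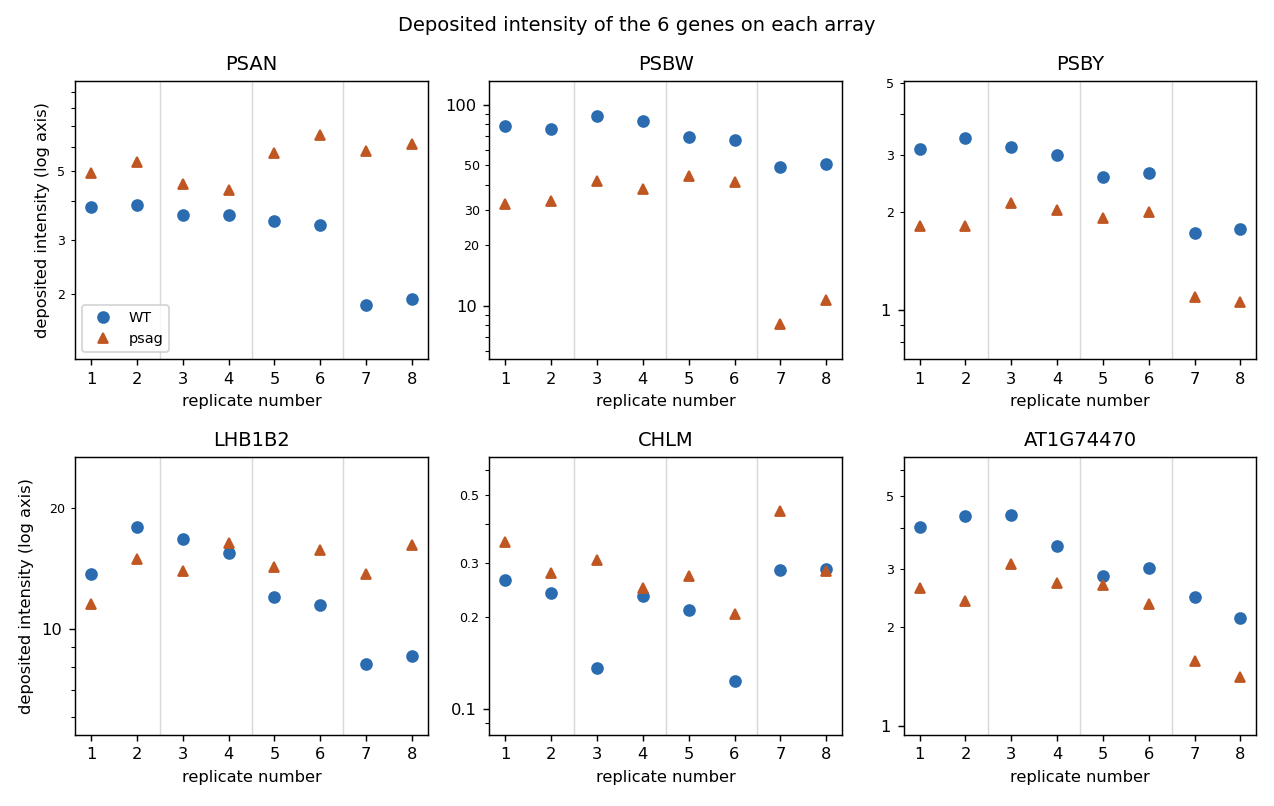
Deposited intensity (log axis) of each of the 6 genes against the replicate number, for 8 WT arrays (circles) and 8 psag arrays (triangles). Vertical lines part the neighbouring numbers that were averaged. In this scale PSAN is higher and PSBW lower on every psag array than on any WT array; with median centring the arrays overlap for both.

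Photosystem I was represented by PSAN, a subunit on the lumenal side of the complex, where plastocyanin docks. Its deposited intensity on the 8 WT arrays ran from 1.85 over a median of 3.53 to 3.89. On the 8 psag arrays it ran from 4.36 over a median of 5.54 to 6.53. Every psag array was thus above every WT array, before any normalization. After quantile normalization the WT measurements were 1.77, 1.75, 1.76 and 0.91 on the log2 scale, in the order of the pairs. The psag measurements were 2.36, 2.1, 2.59 and 3.02. The first 3 WT measurements lay within 0.03 of each other, and WT replicates 7 and 8 lay well below them. WT averaged 1.55 ± 0.42 and psag 2.52 ± 0.39 (SD over 4 measurements each). This 1.96-fold difference missed the threshold (limma over all probes, adjusted p = 0.211). The 95% interval of the log2 difference, for this gene alone and not adjusted over all probes, was 0.33 to 1.61.

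How far PSAN differed depended on the scaling of the arrays. With quantile normalization psag exceeded WT by 0.58, 0.36, 0.83 and 2.1 at the 4 pairs of replicate numbers. With each array centred on its median instead, the same differences were -0.19, -0.11, 0.90 and 2.46, so replicates 1 to 4 turned direction and the arrays of the genotypes overlapped. In the deposited scale they were 0.41, 0.30, 0.84 and 1.64, higher in psag at all 4 pairs. The mean difference was 0.76 with median centring (limma, adjusted p = 0.518) and 0.80 without normalization (limma, adjusted p = 0.293). Without psag replicates 7 and 8 it was 0.80 (limma, adjusted p = 0.190). Without replicates 7 and 8 of both genotypes it was 0.59 (limma, adjusted p = 0.120).

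PSBW is a small membrane subunit of photosystem II, known to help hold the complex and its antenna together. Its deposited intensity was 49.2 at the lowest, 72.3 at the median and 87.7 at the highest of the 8 WT arrays. In psag the lowest was 8.17, the median 35.8 and the highest 44.2. All psag arrays lay below all WT arrays, and psag replicates 7 and 8, at 8.17 and 10.7, lay far below the other psag arrays, which began at 32. The probe was among the brightest, from 3rd to 8th in rank on the WT arrays, from 9th to 12th on psag replicates 1 to 6, and 39th and 33rd on psag replicates 7 and 8. Quantile normalization therefore gave WT replicates 1 to 4 the same log2 value of 6.05. The measurements were 6.05, 6.05, 6.19 and 5.61 in WT and 5.0, 5.25, 5.39 and 3.59 in psag. WT averaged 5.98 ± 0.26 and psag 4.81 ± 0.83 (SD over 4 measurements each), so WT was 2.25-fold higher, which did not pass (limma, adjusted p = 0.308).

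The direction for PSBW held at each of the 4 pairs under all 3 scalings, although with median centring the arrays of the genotypes overlapped (5.29 to 6.60 in WT, 3.52 to 5.58 in psag). The differences were -1.05, -0.80, -0.80 and -2.02 with quantile normalization, and -1.84, -1.50, -0.60 and -1.60 with median centring. Without psag replicates 7 and 8 the mean difference was -0.73 (limma, adjusted p = 0.0951). In that comparison 82 probes (2.39%) passed across the array, and PSBW was not one of them. Without replicates 7 and 8 of both genotypes, a setting chosen after seeing the data, it was -0.77 and PSBW was the 1 gene of the 6 that passed (limma, adjusted p = 0.0498), among 49 probes (1.43%).

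PSBY, another small photosystem II gene, encodes a precursor that is cut into a pair of thylakoid proteins. Its deposited intensity ran from 1.73 over 2.82 to 3.37 in WT and from 1.06 over 1.87 to 2.14 in psag (lowest, median and highest of 8 arrays). The groups overlapped only because WT replicates 7 and 8, at 1.73 and 1.78, were as low as the psag arrays 1 to 6, which began at 1.82. Within each replicate number WT was the higher genotype in this scale. Normalized measurements were 1.59, 1.55, 1.42 and 0.79 in WT and 0.78, 0.92, 1.01 and 0.51 in psag. The difference of -0.53 ± 0.21 (SE), a 1.45-fold higher level in WT, did not pass (limma, adjusted p = 0.349), and it was -0.43 without psag replicates 7 and 8 (limma, adjusted p = 0.364). At the pairs it was -0.82, -0.63, -0.41 and -0.28. With median centring the pair of replicates 7 and 8 turned direction, at 0.14.

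LHB1B2, also written LHCB1.5, encodes a chlorophyll-binding protein of the major antenna of photosystem II. Its relatives of the LHCB1 group have nearly the same sequence, so its probe can hold their signal too. The deposited intensity ran from 8.13 over 12.9 to 18.0 in WT and from 11.5 over 14.6 to 16.4 in psag. The psag arrays all lay within a narrow band inside the WT range, while WT spread widely, with replicates 7 and 8 lowest at 8.13 and 8.55. Normalized measurements were 3.68, 3.81, 3.49 and 3.17 in WT and 3.73, 3.93, 3.97 and 4.2 in psag. The difference of 0.42 ± 0.16 (SE), 1.34-fold, did not pass (limma, adjusted p = 0.349). It was 0.05 and 0.11 at the first pairs of numbers, then 0.49 and 1.03. In the deposited scale the first pairs had the opposite direction, at -0.26 and -0.09. Without psag replicates 7 and 8 it was 0.33 with quantile normalization (limma, adjusted p = 0.357) and -0.00484 with median centring, so no direction is given for LHB1B2.

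**Figure D2:**
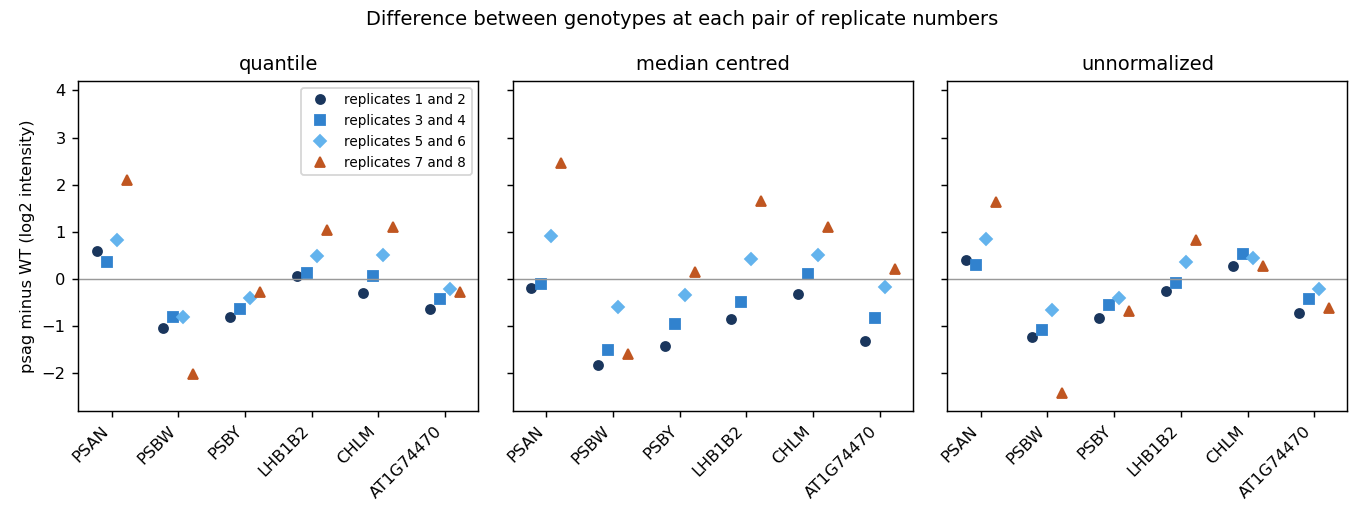
Difference between psag and WT in log2 intensity at each pair of replicate numbers (symbols), for the 6 genes, after quantile normalization, after median centring and in the deposited scale. PSBW is below 0 in all 12 values, while the other 5 genes are on both sides of 0 with median centring.

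CHLM is the methyltransferase that acts on magnesium protoporphyrin IX, a step on the way to chlorophyll. Its probe was dim, with intensities of 0.123 to 0.286 in WT and 0.204 to 0.444 in psag, around medians of 0.236 and 0.280. These values were 0.474 to 1.3 times the median of all probes of the array in WT and 0.728 to 2.53 times in psag. The groups overlapped broadly, and WT replicates 3 and 6, at 0.136 and 0.123, were the lowest arrays. Neighbouring arrays also differed more than for the other 5 genes, by up to 0.62 on the log2 scale. Measurements were -1.52, -2.08, -2.26 and -1.97 in WT and -1.82, -2.03, -1.76 and -0.86 in psag. The difference was 0.34 ± 0.29 (SE; limma, adjusted p = 0.685), and it was 0.09 without psag replicates 7 and 8 (limma, adjusted p = 0.866).

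AT1G74470, also written CHLP, reduces the geranylgeranyl chain to the phytyl chain used for chlorophyll and tocopherol. Its deposited intensity ran from 2.14 over 3.27 to 4.39 in WT and from 1.41 over 2.51 to 3.12 in psag. The groups overlapped, and at each replicate number psag was the lower genotype in this scale. With median centring the pair of replicates 7 and 8 turned direction, at 0.21. The measurements were 1.90, 1.84, 1.60 and 1.25 in WT and 1.26, 1.42, 1.4 and 0.96 in psag. The difference of -0.39 ± 0.17 (SE), with WT 1.31-fold higher, did not pass (limma, adjusted p = 0.428). It was -0.29 without psag replicates 7 and 8 (limma, adjusted p = 0.460). The interval, from -0.81 to 0.02 on the log2 scale, held 0. The enzyme of the tetrapyrrole branch and that of the phytyl branch thus had means on opposite sides of 0, and neither difference passed. For CHLM the mean came down to 0.09 without psag replicates 7 and 8. The pairs of CHLM lay on both sides of 0 with quantile normalization (-0.30, 0.05, 0.50 and 1.11). In the deposited scale they were all above 0 (0.27, 0.52, 0.45 and 0.28). Under median centring the pairs of both genes lay on both sides of 0. The directions thus depended on the scaling, and no contrast of the branches is drawn.

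**Figure D3:**
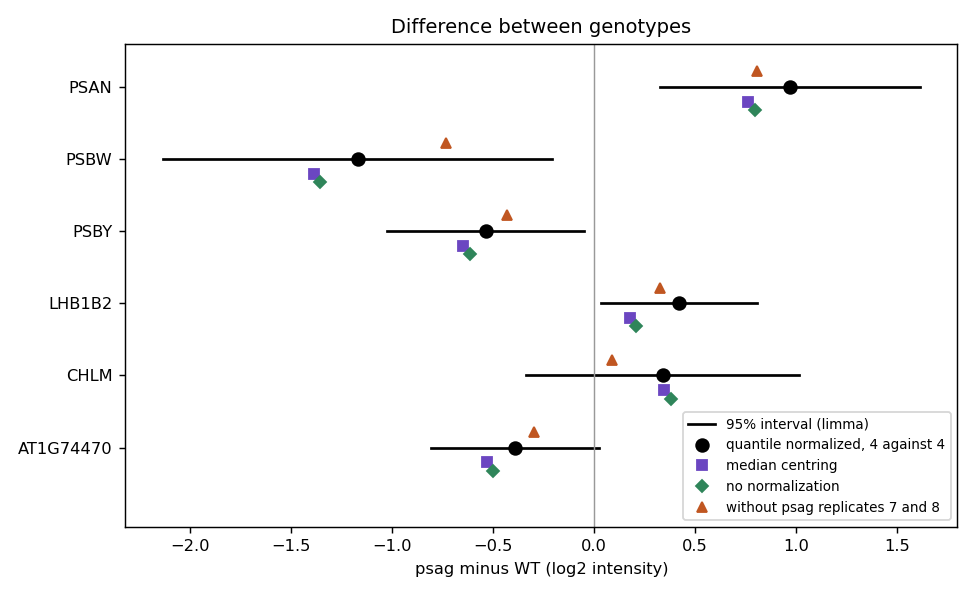
Difference between psag and WT in log2 intensity for the 6 genes (black points, mean of 4 against 4 measurements; bars, 95% interval from limma). Squares, diamonds and triangles give the difference with median centring, without normalization and without psag replicates 7 and 8. Each interval is for the gene alone and is not adjusted over all probes. Those of CHLM and AT1G74470 hold 0, and none of the 6 differences passed after adjustment. PSBW moves most without psag replicates 7 and 8, to -0.73.

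After quantile normalization, replicates 7 and 8 were low in WT for most of these genes. Relative to the mean of the other WT measurements they were at -0.85 for PSAN, -0.73 for PSBY, -0.53 for AT1G74470, -0.49 for PSBW and -0.49 for LHB1B2, and at -0.02 for CHLM. In psag the same numbers were at -1.63 for PSBW, -0.40 for AT1G74470 and -0.39 for PSBY, but at 1.01 for CHLM, 0.66 for PSAN and 0.33 for LHB1B2. On this scale PSBW, PSBY and AT1G74470 were thus low at these numbers in both genotypes, while PSAN and LHB1B2 were low in WT and high in psag. In the deposited scale, psag replicates 7 and 8 lay inside the range of psag replicates 1 to 6 for PSAN (5.83 and 6.11, within 4.36 to 6.53) and LHB1B2 (13.7 and 16.2, within 11.5 to 16.4). With median centring they did so for PSBY (0.67 and 0.65, within 0.58 to 1.11) and AT1G74470 (1.18 and 1.05, within 0.97 to 1.56). What sets these arrays apart was not tested.

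The count of passing genes depended on how neighbouring arrays were treated. On the 4 against 4 measurements the genotypes did not overlap for 2 of the 6 genes, PSAN and PSBW, where 345 probes (10.0%) of all showed this. On the 8 against 8 arrays it was again these genes, with 129 probes (3.75%) after quantile normalization and 112 (3.26%) in the deposited scale. After median centring the arrays of the genotypes overlapped for all 6 genes. The fits below all used quantile normalization. With 16 arrays and neighbours as a random block, PSAN (limma, adjusted p = 0.0121) and PSBW (limma, adjusted p = 0.0365) passed, and 102 probes (2.97%) did so in all. The random block takes the same neighbour correlation, 0.638, for every probe. Neighbours differed by a median of 0.02 for PSAN and 0 for PSBW on the log2 scale, against 0.16 over all probes. For these genes the fit can therefore count neighbours as more independent than they were. Its SE was 0.19 for PSAN and 0.28 for PSBW, against 0.27 and 0.41 with averaged pairs. With 16 arrays taken as separate, PSAN, PSBW, PSBY and LHB1B2 passed (limma, adjusted p = 0.00397, 0.0156, 0.0245 and 0.0482), beside 330 probes (9.60%). That fit counts neighbours that resemble each other as independent. With 16 arrays and the replicate number as a block, PSAN, PSBW, PSBY and AT1G74470 passed (limma, adjusted p = 0.04996, 0.00992, 0.00808 and 0.0199), beside 287 probes (8.35%), and it has the same limit. With the averaged pairs as a block, 0 of the 6 passed, and the lowest adjusted p was 0.300 (limma).

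Ratios between these genes on the same array do not change when an array is scaled by a factor. The intensity of PSAN over that of PSBW was 0.0376 to 0.0514 on the 8 WT arrays. On psag replicates 1 to 6 it was 0.108 to 0.160, and on psag replicates 7 and 8 it was 0.714 and 0.570. The groups did not overlap. This follows from the single genes, since in the deposited scale PSAN was higher and PSBW lower on every psag array. The ratio therefore adds no separate result on the genotypes. On average the ratio was 4.47-fold higher in psag, and 3.03-fold without psag replicates 7 and 8. A ratio to PSBW separated the genotypes for 648 of 2440 probes listed above 0 on all arrays (26.6%), a share to be read beside the separation by PSBW itself.

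Against PSBY, the PSAN intensity was 1.07 to 1.35 in WT and 2.12 to 5.75 in psag, again with no overlap. It was 2.70-fold higher in psag on average and 2.25-fold without psag replicates 7 and 8. A ratio to PSBY separated the genotypes for 192 of the 2440 probes (7.87%). LHB1B2 over AT1G74470 was 3.29 to 4.39 in WT and 4.39 to 11.4 in psag, with the nearest arrays just apart, against 128 probes (5.25%) for ratios to AT1G74470. LHB1B2 over PSAN overlapped between genotypes, at 3.41 to 4.66 in WT and 2.34 to 3.77 in psag. CHLM over AT1G74470 overlapped too, with 0.0310 to 0.134 in WT and 0.0865 to 0.281 in psag.

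PSBY and AT1G74470 kept nearly the same ratio on all 16 arrays. It was 0.701 to 0.896 in WT and 0.685 to 0.849 in psag, also on the psag arrays that stood apart, where it was 0.695 and 0.751. The SD of the log2 ratio over 16 arrays was 0.13. For 497 genes set against AT1G74470 in the same way the median was 0.74, and PSBY had the smallest. Over the 8 measurements the log2 levels of both genes had a Pearson r of 0.979, and 0.971 without psag replicates 7 and 8. The measurements share arrays and their overall quality, and the pair was singled out after its values were seen, so this is a description.

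**Figure D4:**
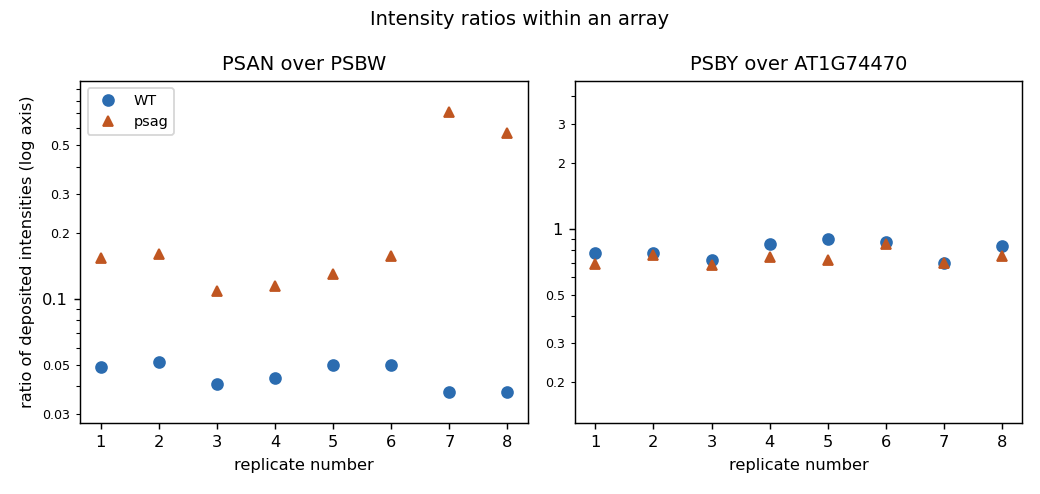
Ratio of deposited intensities on the same array (log axis) against the replicate number, for WT (circles) and psag (triangles). PSAN over PSBW separates the genotypes, with WT at 0.0376 to 0.0514, as each of these genes does alone in this scale. PSBY over AT1G74470 stays between 0.685 and 0.896 on all 16 arrays.

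Other genes of these pathways had few probes of their own. Of 86 loci listed for both photosystems, their antennae, chlorophyll synthesis and photosystem assembly, 8 had a single-gene probe, the 6 above and 2 more, and 0 of the 8 passed across all probes. Another 7 lay on probes that list several genes and are not named. Neither PSAG itself nor any gene of the photosystem I antenna was among the 8, so the targeted transcript was not checked. Of 11 marker loci of leaf, senescence, seed and root, 0 had a probe of their own, so the tissue was not checked.

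The first of the 2 was PSB27 (AT1G03600), a lumenal protein that acts in assembly and repair of photosystem II. Its intensity followed the replicate number. WT replicates 1 to 4 lay between 3.69 and 4.28, replicates 5 and 6 at 0.577 and 0.267, and replicates 7 and 8 at 1.37 and 1.0. In psag, replicates 1 to 4 lay between 2.21 and 2.60, replicates 5 and 6 at 0.285 and 0.450, and replicates 7 and 8 at 0.918 and 0.313. Both genotypes thus had their high arrays at numbers 1 to 4 and low ones at 5 and 6. The SD was 1.45 in WT and 1.2 in psag over 4 measurements each. The difference of -0.46 ± 0.87 (SE) did not pass (limma, adjusted p = 0.864). That SE counts the swing shared by replicate number as scatter. A fit with the averaged pairs as a block gave the same difference with an SE of 0.13. It did not pass there either (limma, adjusted p = 0.335). Leaving out psag replicates 7 and 8 gave -0.28 (limma, adjusted p = 0.951), and leaving out psag replicate 8 alone gave -0.30 (limma, adjusted p = 0.929). Leaving out replicates 5 and 6 of psag gave 0.01, and leaving out those of WT gave -1.06. Such fits compare unlike replicate numbers between the genotypes. At the pairs the difference was -0.66, -0.63, -0.08 and -0.48, although on the single arrays of number 6 psag was the higher genotype.

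The second was AT1G22700, the locus of PYG7, which takes part in the assembly of photosystem I. Its intensity on WT arrays ran from 0.626 over 0.974 to 1.26. Psag replicates 1 to 6 lay between 0.460 and 0.95, and psag replicates 7 and 8 were at 0.165 and 0.103. The difference was -0.77 ± 0.42 (SE; limma, adjusted p = 0.521) with all measurements and -0.36 without psag replicates 7 and 8 (limma, adjusted p = 0.430). The pair differences were -0.27, -0.32, -0.26 and -2.24, so the last pair made up most of the mean.

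**Figure D5:**
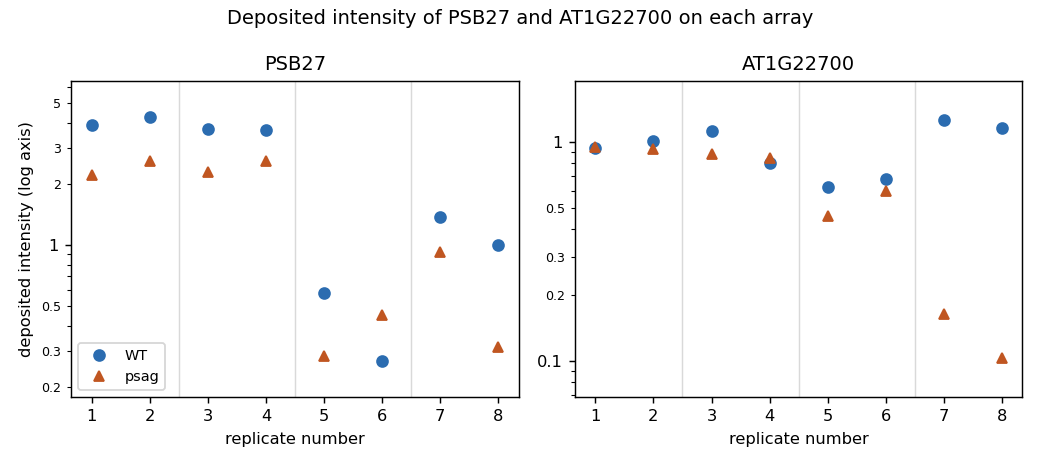
Deposited intensity (log axis) of PSB27 and AT1G22700 against the replicate number, for WT (circles) and psag (triangles). PSB27 is low at numbers 5 and 6 in both genotypes, and AT1G22700 is low on psag replicates 7 and 8, at 0.165 and 0.103.

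Genes whose levels followed each of the 6 most closely were sought among 564 other single-gene probes, by Pearson correlation over the 8 measurements. For AT1G74470 it was THIC, an enzyme of thiamine synthesis in the plastid (r = 0.979, and 0.966 without psag replicates 7 and 8), then AT1G13990 (0.958 and 0.972). For PSBY the same genes came first, AT1G13990 (0.970 and 0.972) and THIC (0.962 and 0.948). LHB1B2 was followed by AT3G12930 (0.975 and 0.964) and AT4G30680 (0.965 and 0.946). PSAN was followed by FBL17, an F-box protein of the cell cycle (0.958 and 0.952), and also by AT4G30680 (0.938 and 0.900). For PSBW they were AT3G20150 (0.965 and 0.869) and AT3G60590 (0.958 and 0.823), and for CHLM AT5G03900 (0.944 and 0.817) and AT5G59400 (0.937 and 0.747). The values for PSBW and CHLM thus dropped most without the psag arrays that stood apart. None of these 9 genes passed between genotypes (limma, adjusted p from 0.173 to 0.466). The correlations pool both genotypes and describe these arrays only.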

How the data were processed

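The file analysed holds the authors' deposited probe intensities, a unit inferred from the values (linear, 0 to 100). Scanning, background correction, scaling and the type of array are not given in the sources used here. Sums per array were 2314 to 3460, medians 0.172 to 0.347, and 13.0% to 16.5% of probes were listed at 0. Precision is limited by how many arrays there are. Gene names came from GEO's platform annotation and a RefSeq gene table (TAIR10.1), which matched 690 of 692 single-gene probes. No positions are printed, because the build behind the probes is not stated.

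Values were taken as log2(intensity + 0.0407), the 5th percentile of positive intensities, and quantile normalized, with neighbouring replicate numbers averaged. For 14 of 16 arrays the neighbour was the closest array of the genotype. The labels do not mention such pairs or separate plants, so p-values measure only how these measurements scatter, and that scatter may be technical. A fold is on the log2(intensity + pseudocount) scale and understates changes of dim probes. The genotype comparison used limma 3.58.1 under R 4.3.3 (two-sided, Benjamini-Hochberg over 3438 probes, threshold 0.05), a procedure tested on simulated data. For 1 locus with several probes the brightest was kept. Alternatives covered scaling, pseudocount, filters, variance model, blocks and left-out arrays.

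Genes were named by rule: the 6 members, listed pathway genes with a probe of their own, and the 2 most correlated genes per member among those listed at 0 on at most 4 arrays. Members and lists were chosen with earlier results of these data known.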

Additional observations from a re-analysis of the deposited data

Results flagged for a closer look

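Of 16 groups of 4 measurements examined (8 genes in each genotype), 1 held a value far from the other 3, where chance gives about 0.80 (1 in 20). For PSAN in WT the gap to the nearest measurement was 0.968 of the whole range: WT replicates 7 and 8 were at 0.91 and the others at 1.75 to 1.77. Without that pair PSAN differed by 0.75 between genotypes (limma, adjusted p = 0.307). On the same arrays PSBW, PSBY, LHB1B2 and AT1G74470 were low too, and the cause was not tested.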

How the results depend on the processing

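Over 40 alternatives, the mean difference of PSAN kept its direction (0.54 to 1.11), as did that of PSBW (-1.39 to -0.73), PSBY (-0.74 to -0.41), CHLM (0.08 to 0.48), AT1G74470 (-0.54 to -0.29) and AT1G22700 (-1.0 to -0.28). Many of these settings say little about direction. Filters on all arrays, limma-trend, the random block, 16 separate arrays and the replicate blocks leave the mean difference unchanged. Leaving out 1 array keeps its neighbour in place. Under median centring, single pairs of PSAN, PSBY, CHLM and AT1G74470 lay on both sides of 0. LHB1B2 reversed to -0.00484 without psag replicates 7 and 8 with median centring, and PSB27 to 0.0159 with array weights and 0.0138 without psag replicates 5 and 6. Without WT replicates 5 and 6 instead, PSB27 was at -1.06, as it was low at these numbers in both genotypes. Of the 6 genes, 0 passed in the 4 against 4 comparison, 2 with neighbours as a random block, 4 with 16 separate arrays, 4 with the replicate block on 16 arrays and 1 without replicates 7 and 8 of both genotypes.

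The count of 11 probes (9 higher, 2 lower) was 0 with median centring, 6 with the lower pseudocount, 3 without the dimmest 25%, 2 without probes listed at 0 throughout, 4 with limma-trend and 102 with array weights. It was 102 with the random block, 330 with 16 arrays, 1 with the replicate block on averaged pairs and 287 on 16 arrays. Leaving out 1 array gave 3 to 13 (3 without psag replicate 7, 5 without WT replicate 1 or 4, 7 without WT replicate 8). Leaving out 1 pair gave 0 for 3 of the WT pairs (numbers 1 and 2, 5 and 6, 7 and 8) and for psag numbers 1 and 2, then 1 and 2 without replicates 3 and 4 of WT and psag, 4 without psag replicates 5 and 6, and 82 without psag replicates 7 and 8. That last setting gave 7 with median centring, 68 without normalization and 40 without probes listed at 0 throughout; leaving out replicates 7 and 8 of both genotypes gave 49. The settings with 68, 40 and 49 were chosen after seeing the data. Without normalization and psag replicates 7 and 8, the median of all probes was 0.12 above 0. The causes were not tested.

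Same-numbered averaged pairs deviated together across genotypes at 0.051, 0.108, 0.166 and 9.6e-04, and 6 of 8 arrays in each genotype correlated best with their own number. Not all pairs exceeded 0.1 and the labels state no pairing, so the main fit did not use the numbers as pairing. That mark was not applied to neighbours, and the correlations do not settle the question. Single arrays of the same number correlated at 0.051 to 0.206. A block on averaged pairs lowered the SE for PSBW (0.41 to 0.26), PSBY (0.21 to 0.12), AT1G74470 (0.17 to 0.10) and CHLM (0.29 to 0.27). It raised the SE for PSAN (0.27 to 0.35) and LHB1B2 (0.16 to 0.21).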
